A study of Arabidopsis thaliana with 18 samples.

Results

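Monosomal RNA, the transcripts that sediment with a single ribosome, was compared with total RNA in dry Arabidopsis seeds of Col-0. The comparison rests on 6 of the 18 arrays of the series, 3 of Col-0 monosomal RNA and 3 of Col-0 total RNA, picked from their titles, which name genotype and fraction. The other 12 arrays hold Col-0 polysomal RNA and the total, polysomal and monosomal RNA of the abci20 mutant in the Col-0 background, with 3 arrays in each group. All groups were freshly harvested dry seed without a further treatment named in the labels, and each replicate was a bulk of 8 plants, so no value describes a single plant or a single seed tissue. The sources used here do not give the way in which monosomal and polysomal fractions were separated.

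A message that is being translated usually carries several ribosomes and sediments with polysomes. Messages with 1 ribosome include those whose reading frame leaves room for few ribosomes and those on which initiation is rare. Mature dry seeds store messages made during maturation and hold few polysomes until they take up water, so much of the stored RNA lies outside them. Total RNA holds all of these pools together with RNA that carries no ribosome. The values are log2 signals scaled within each array, so a difference between fractions is a difference in relative share and not in amount. In whole seeds, fewer cells of a type and less RNA per cell cannot be told apart.

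Of 27827 probe sets, 1850 (6.65%) differed between monosomal and total RNA at an adjusted p under 0.05 (limma, Benjamini-Hochberg over all probe sets). Of these, 890 (3.2%) were higher in monosomal RNA and 960 (3.45%) were lower, and the median difference over all probe sets was 0.06 log2. At least 2-fold differences were seen for 550 higher (1.98%) and 711 lower (2.56%) probe sets. Every monosomal array lay above every total RNA array for 4300 probe sets (15.5%) and below for 3360 (12.1%). Groups that do not overlap were therefore common and are given only as a description. Differences were positive for 15231 probe sets and negative for 12596. With arrays centred on their medians, the median difference became 0.2 and the split 1214 higher and 624 lower, so medians of gene groups are given beside that of all probe sets. The count was 1034 without Col-0 monosome replicate 1, 1125 without monosome replicate 3, 1150 without total replicate 1 and 768 without total replicate 2. It was 3185 without abci20 total replicate 1, which enters only through the shared estimate of spread and stood apart, with correlations of 0.893 and 0.915 to the other arrays of its group. Within the compared groups, arrays correlated at 0.957 to 0.963 in total RNA and at 0.958 to 0.965 in monosomal RNA, against 0.923 to 0.949 between them. Where the call of a gene was lost without 1 of the compared arrays, the highest adjusted p over the alternative settings is given after "up to". Alternatives were run per gene only for genes named by rule or chosen for description, and calls lost only when the fit held the compared arrays alone are listed with the other settings. Signals of 6 embryo marker genes lay at percentiles 99.4 to 100 of their arrays in both groups, whereas 6 seed coat markers had a median percentile of 20.6 in total RNA and 19.9 in monosomal RNA. Of 3 endosperm markers, EPR1, a cell wall protein gene of the germinating endosperm, was the bright one, with 11.24 to 11.34 log2 in total RNA and 10.71 to 10.76 in monosomal RNA.

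**Figure D1:**
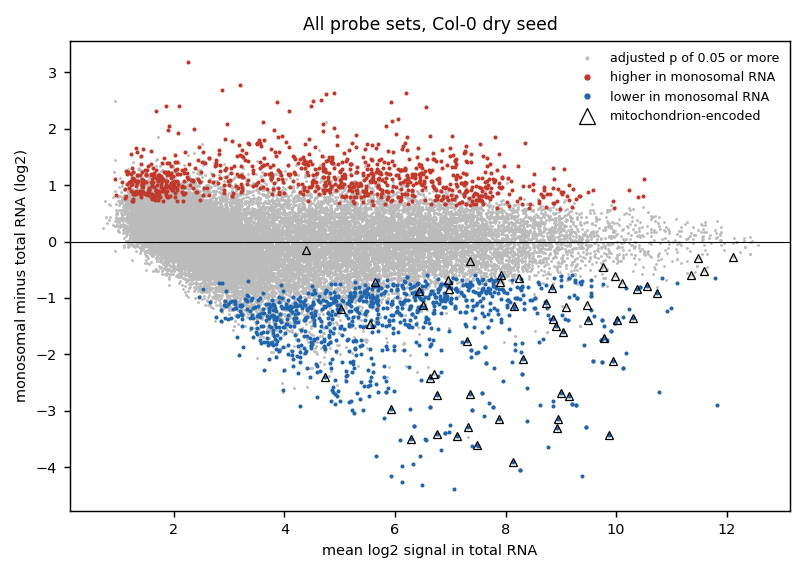
Mean log2 signal of each probe set in Col-0 total RNA (x axis) against its log2 difference between monosomal and total RNA (y axis), with red points higher and blue points lower at an adjusted p under 0.05. The mitochondrion-encoded genes, drawn as triangles, all lie below 0, and the largest falls reach -4.39 against 3.18 for the largest rise.

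SDH8, a small plant-specific subunit of mitochondrial succinate dehydrogenase (complex II), had log2 signals of 6.25, 6.47 and 5.88 in total RNA and 8.90, 8.87 and 8.72 in monosomal RNA. It was 6.2-fold higher in monosomal RNA (log2 difference 2.63, SE 0.259, adjusted p = 5.92e-05), and its polysomal arrays, at 6.92, 7.04 and 6.54, did not pass the threshold against total RNA (adjusted p = 0.141). Among 12 succinate dehydrogenase genes, 2 (16.7%) were higher, against 3.2% of all probe sets, and none was lower. The other one, the SDH7 gene AT5G62575, which encodes a further small subunit, was 2.77-fold higher (adjusted p = 0.0031). The flavoprotein SDH1-1, the large catalytic subunit, differed by 0.14 and did not pass the threshold (adjusted p = 0.759).

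MT1A and MT1C encode type 1 metallothioneins, short cysteine-rich proteins that bind metal ions. MT1A had 6.42, 6.04 and 5.29 in total RNA and 8.75, 8.37 and 8.04 in monosomal RNA, a 5.54-fold difference (SE 0.358 log2, adjusted p = 0.00109). MT1C had 3.86, 5.45 and 4.95 against 6.99, 7.83 and 7.26, a 6.09-fold difference (SE 0.404 log2, adjusted p = 0.00134). In both genes every monosomal array lay above every total RNA array, as for 15.5% of all probe sets. The polysomal means, 6.08 for MT1A and 5.47 for MT1C, lay below the monosomal ones (adjusted p = 0.000625 and 0.0057). All 8 metallothionein genes had positive differences, with a median of 0.67 against 0.06 over all probe sets. Of the 8, 3 (37.5%) were called higher, against 3.2% of all probe sets. The third was the seed metallothionein AtMT4a (difference 0.72, adjusted p = 0.0336), whose call was lost when any 1 of the 6 compared arrays was left out (adjusted p up to 0.118). The count was thus 2 without any 1 array. The brightest member, MT2A, differed by 0.16 (adjusted p = 0.596).

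GSTU4, a glutathione transferase of the tau class, rose from 5.20, 5.03 and 4.48 in total RNA to 7.32, 8.2 and 7.08 in monosomal RNA (6.19-fold, SE 0.438 log2, adjusted p = 0.00209). Of 28 tau class genes, GSTU4 and GSTU16 (difference 0.96, adjusted p = 0.0222) were higher and GSTU23 was lower (-2.48, adjusted p = 0.0271), so the class did not move together. The calls of GSTU16 and GSTU23 were lost with single arrays left out, at adjusted p values up to 0.0731 and 0.103. Of the 12 genes with the largest called rise, 7 have no symbol in the reference, among them AT5G22545 (2.77), AT5G55640 (2.5), AT1G25275 (2.49), AT5G65300 (2.48), AT3G19615 (2.41) and AT2G45860 (2.41). LCR30, of a family of small cysteine-rich secreted proteins, differed by 2.68 (adjusted p = 0.00907). AT1G62620, also unnamed, had the largest difference, 3.18, but its monosomal arrays ranged from 3.93 to 7.32, and without monosome replicate 2 or 3 or total replicate 2 or 3 its adjusted p rose to as much as 0.122.

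**Figure D2:**
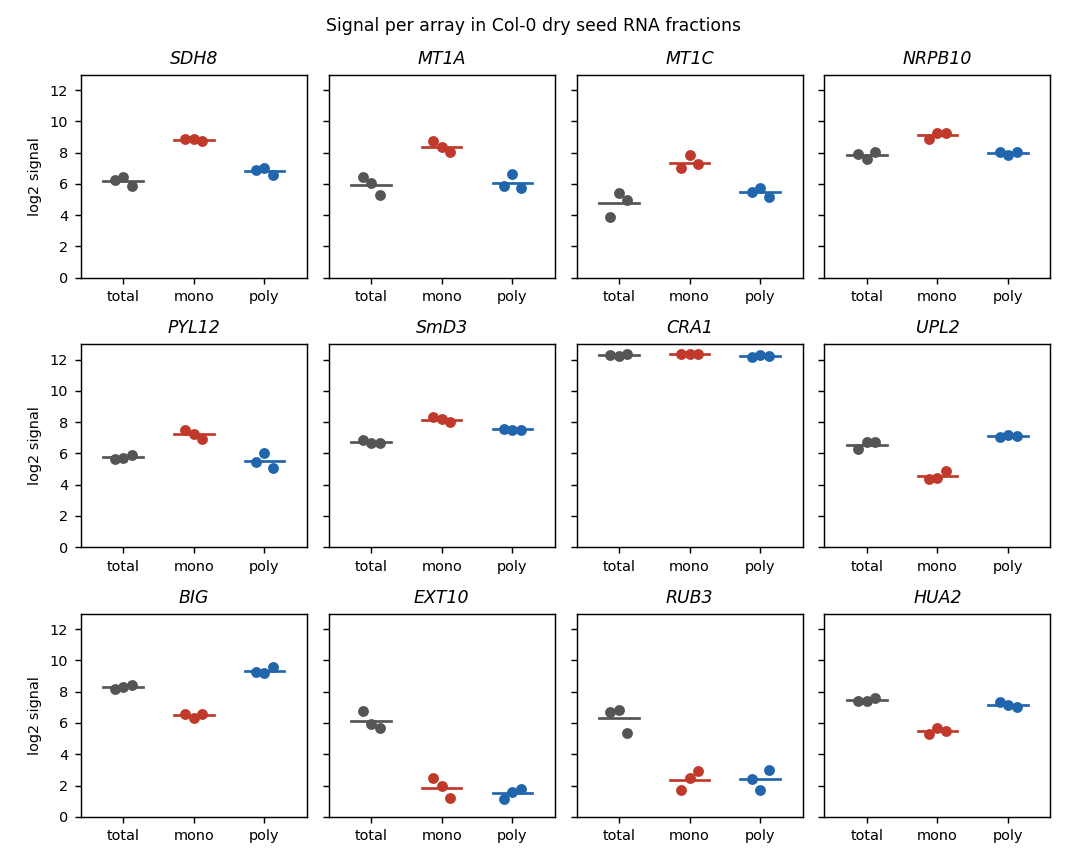
Log2 signal per array (y axis) for 12 genes in Col-0 total, monosomal and polysomal RNA, with 3 points per fraction and a bar at their mean. SDH8, MT1A and MT1C stand higher in monosomal RNA than in both other fractions, CRA1 is level in all 3, UPL2 and BIG are low in monosomal RNA and high in polysomal RNA, and EXT10 and RUB3 are low in both ribosomal fractions.

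Subunit families of several protein complexes were examined. These families were chosen after their values had been seen and are given as a description. Nuclear RNA polymerases consist of 2 large catalytic subunits and a set of small ones. Of 18 small-subunit genes, 6 (33.3%) were higher, against 3.2% of all probe sets, and none was lower, with a median of 0.66. NRPB10, a small subunit shared by the polymerases, had 7.91, 7.59 and 8.06 in total RNA and 8.88, 9.27 and 9.23 in monosomal RNA (difference 1.27, SE 0.202, adjusted p = 0.00151). NRPB8B differed by 1.24 (adjusted p = 0.00482), NRPE5 by 1.09 (adjusted p = 0.00863) and NRPB5 by 0.8 (adjusted p = 0.0222, lost without monosome replicate 1 or 2 or total replicate 2 or 3, up to 0.0767). Of 10 large-subunit genes, none was higher, 2 (20%) were lower, and all 10 differences were negative, with a median of -0.66. The share lower was 3.45% over all probe sets and 7.39% among protein-coding genes with spans of 3348 to 27265 bases. NRPA1, the largest subunit of RNA polymerase I, had 6.50, 6.43 and 6.27 in total RNA, 4.87, 5.54 and 5.03 in monosomal RNA and 6.97, 7.18 and 7.12 in polysomal RNA. Its monosomal signal was thus below total RNA (-1.25, SE 0.233, adjusted p = 0.00445) and below polysomal RNA (-1.94, adjusted p = 7.81e-05). NRPB1, the largest subunit of RNA polymerase II, was 2-fold lower (-1, adjusted p = 0.00467), while NRPB2 differed by -0.11 (adjusted p = 0.755). With 1 of the 6 arrays left out, between 3 and 5 of the small-subunit genes were called, fewest without monosome replicate 1, and 2 of the large-subunit genes in every case.

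The import machinery of mitochondria brings proteins through the outer membrane by the TOM complex and through the inner membrane by TIM complexes. Of 23 genes for its subunits, 8 (34.8%) were higher, against 3.2% of all probe sets, and none was lower, with a median of 0.47. TOM20-3, a receptor subunit, had 5.46, 6.14 and 5.81 in total RNA and 6.94, 7.36 and 7.37 in monosomal RNA (difference 1.41, SE 0.286, adjusted p = 0.00737). TIM9, a small chaperone of the space between the membranes, had 5.59, 5.93 and 5.66 against 6.97, 7.03 and 6.82 (1.22, SE 0.236, adjusted p = 0.0057). In both genes the groups did not overlap, as for 15.5% of all probe sets in this direction. The receptor TOM22-V (1.04), the small TOM5 (0.91, lost without total replicate 2, up to 0.0653) and the small chaperones TIM13 (1.13), TIM10 (1.01) and TIM8 (0.75), together with TOM20-4 (1.09), made up the other 6. The other 15 genes did not pass the threshold, among them the larger components TOM40 (0.17), TIM50 (0.47) and TIM44-2 (-0.52). Called genes had spans of 696 to 1792 bases with introns, against 306 to 3429 in the whole list. The shortest gene of the list was thus not called either. With single arrays left out, 5 or 6 of the 23 were called.

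Sm and LSm proteins are small RNA-binding proteins that form rings on spliceosomal RNAs and on decaying messages. All 12 genes had positive differences, with a median of 0.45, and 3 of them (25%) were higher, against 3.2% of all probe sets. SmD3 had 6.88, 6.66 and 6.68 in total RNA and 8.33, 8.18 and 7.99 in monosomal RNA (difference 1.43, SE 0.204, adjusted p = 0.000996), and its polysomal arrays, at 7.58, 7.50 and 7.52, lay between them. LSM8, of the nuclear LSm ring, differed by 1.24 (adjusted p = 0.00327). SAD1, which is known for altered abscisic acid and drought responses in its mutant, differed by 1.3 (adjusted p = 0.0146), a call that was lost without monosome replicate 2 or total replicate 1 (adjusted p up to 0.0658).

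Abscisic acid, the hormone of seed maturation and dormancy, is sensed by small soluble receptors of the PYR/PYL family, which inhibit clade A phosphatases once they bind it. Of 14 receptor genes, 3 (21.4%) were higher, against 3.2% of all probe sets, and none was lower, with a median of 0.45. PYL12 had 5.65, 5.68 and 5.92 in total RNA and 7.48, 7.25 and 6.94 in monosomal RNA, a 2.78-fold difference (SE 0.324 log2, adjusted p = 0.0123). PYL11 had 5.24, 5.94 and 6.43 against 7.30, 7.84 and 7.30 (3.06-fold, adjusted p = 0.0278), and PYR1 had 6.16, 5.46 and 6.33 against 7.48, 7.41 and 7.13 (2.56-fold, adjusted p = 0.0258). The groups did not overlap in any of these 3 genes, as was the case in this direction for 15.5% of all probe sets. All 3 were also higher in monosomal than in polysomal RNA (adjusted p = 0.00263, 0.0123 and 0.0331 for PYL12, PYL11 and PYR1). That comparison uses the same monosomal arrays and is no separate support. The calls were fragile: without monosome replicate 1 the adjusted p of PYL12 was 0.0522, PYR1 lost its call without monosome replicate 1 or 2 or total replicate 2 (up to 0.126), and PYL11 lost it without any monosome replicate or total replicate 1 or 2 (up to 0.11). Between 0 and 3 receptors were called with 1 array left out. In a wider list of 31 dormancy and abscisic acid genes, which holds 4 of these receptors, 2 (6.45%) were higher, against 3.2% of all probe sets, and none was lower. They were PYR1 and the clade A phosphatase ABI2 (difference 0.77, adjusted p = 0.0351, lost without monosome replicate 1 or 3 or any total replicate, up to 0.135).

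Elicitor peptide precursors (PROPEPs) are short proteins from which defence-triggering peptides are cut. All 6 had positive differences, with a median of 1.1, and 3 (50%) were called higher, against 3.2% of all probe sets. PROPEP5 had 6.49, 6.63 and 6.80 in total RNA, 8.66, 8.61 and 8.25 in monosomal RNA and 5.98, 6.80 and 5.97 in polysomal RNA. It was therefore 3.65-fold higher than in total RNA (SE 0.24 log2, adjusted p = 0.000405) and also higher than in polysomal RNA (log2 difference 2.26, adjusted p = 3.56e-05). The monosomal arrays are the same in both comparisons. PROPEP4 was 3.22-fold higher (adjusted p = 0.000424). PROPEP6 was 2.65-fold higher (adjusted p = 0.0235), without a call when monosome replicate 1 or 2 or total replicate 1 or 3 was left out (up to 0.0979). Of 208 other small secreted peptide genes, most of them dim with a median of 1.95 log2 in total RNA, 169 had positive differences, 5 were higher and 1 was lower, shares of 2.4% and 0.481% that do not exceed those of all probe sets. A high share of positive but uncalled differences was also seen for 174 primary microRNA transcripts (125 positive, 8 higher, 3 lower, median level 1.92), which lie near the bottom of the signal range. With 1 array left out, 1 to 7 of the microRNA transcripts were higher and 0 to 3 lower, fewest without monosome replicate 3, and 1 to 4 of the small secreted peptide genes were higher, fewest without total replicate 1.

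Ubiquitin and its relatives are small proteins joined to other proteins. Of 34 genes for them, 5 (14.7%) were higher, against 3.2% of all probe sets, and 1 was lower. With 1 array left out, 3 to 5 were higher, fewest without total replicate 2. RUB1, whose product modifies cullin ubiquitin ligases, had 6.12, 6.06 and 5.83 in total RNA and 7.61, 8.23 and 7.92 in monosomal RNA (3.77-fold, SE 0.399 log2, adjusted p = 0.00873). ATG8C, which marks autophagosomes, was 2.33-fold higher (adjusted p = 0.0031), and the membrane-anchored MUB1 was 2.32-fold higher (adjusted p = 0.00598). RUB3 went the other way, with 6.73, 6.84 and 5.38 in total RNA against 1.73, 2.49 and 2.92 in monosomal RNA and 2.42, 1.74 and 3 in polysomal RNA. It was 15.3-fold lower in monosomal than in total RNA (adjusted p = 0.000159) and did not pass the threshold against polysomal RNA (adjusted p = 0.996).

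A further 5 genes of well-studied small or mid-sized proteins, chosen after their values were seen, were higher with no overlap of the groups. Such a separation held for 15.5% of all probe sets. CXXS1, a thioredoxin-like protein, had 6.43, 5.72 and 6.04 in total RNA and 8.27, 8.40 and 8.04 in monosomal RNA (4.51-fold, SE 0.23 log2, adjusted p = 9.99e-05). FIP37, a core component of the complex that writes N6-methyladenosine on messages, had 5.38, 5.28 and 5.21 against 7.32, 7.55 and 6.65 (3.69-fold, adjusted p = 0.00125). The transcriptional coactivator KELP was 3.25-fold higher (adjusted p = 0.00261), the plastid outer envelope channel OEP16-1 2.96-fold (adjusted p = 0.00254), and the small acidic protein SMAP1 2.52-fold (adjusted p = 0.00109). All 5 were also higher in monosomal than in polysomal RNA, with log2 differences of 1.73, 1.63, 2.27, 1.89 and 1.13 (adjusted p of 0.00155 or less). Both comparisons use the same monosomal arrays, on which these genes were chosen, so the second is no separate support.

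None of 9 seed storage protein genes and none of 6 oil body protein genes passed the threshold, and their median differences were -0.02 and 0.15. The cruciferin CRA1, a major storage globulin, had 12.27, 12.26 and 12.38 in total RNA and 12.37, 12.37 and 12.38 in monosomal RNA (difference 0.07, SE 0.16, adjusted p = 0.838). The largest difference in the storage group, that of the 2S albumin SESA4, was 0.35 (adjusted p = 0.361). These probe sets lie near the top of the signal range, and scanner saturation was not tested. Storage protein signals were higher in monosomal than in polysomal RNA for 3 of the 9 genes, against 4.25% of all probe sets.

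Late embryogenesis abundant proteins protect the drying embryo. Of 21 genes, 2 (9.52%) were higher, against 3.2% of all probe sets, none was lower and 16 had positive differences, with a median of 0.34. The dehydrin LTI30 had 10.24, 10.29 and 10.18 in total RNA, 11.15, 11.19 and 11.13 in monosomal RNA and 10.07, 9.86 and 9.52 in polysomal RNA. Its arrays did not overlap between monosomal RNA and either other fraction (1.89-fold over total RNA, SE 0.21 log2, adjusted p = 0.0151, and 1.34 log2 over polysomal RNA, adjusted p = 0.000652). Every monosomal array lay above every total RNA array for 15.5% of all probe sets. The other called gene was LEA14 (difference 0.69, adjusted p = 0.0406, lost without any 1 of the 6 arrays, up to 0.126). ECP63 went the other way without passing the threshold (-0.58, adjusted p = 0.0776). Small heat shock proteins behaved alike in sign: 6 of 7 differences were positive, and ATHSP22.0, which resides in the endoplasmic reticulum, passed the threshold (1.31, SE 0.26, adjusted p = 0.00643). Of 14 large heat shock genes, 11 had negative differences and 1 was lower (7.14%, against 3.45% of all probe sets). This was HSP101, a disaggregase needed for heat tolerance of seeds (-0.64, adjusted p = 0.0295). That call was lost without monosome replicate 1 or 3 or any total replicate (up to 0.134) and with centred arrays.

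A list of 16 antioxidant enzymes and water channels of the dry seed, 5 of them water channels, had a median of 0.12. It held no lower gene and 4 higher genes (25%), against 3.2% of all probe sets. With 1 array left out, 2 or 3 were called, fewest without monosome replicate 2. The superoxide dismutases of 3 compartments were among the 4. The other was the ascorbate peroxidase APX3 (0.67, adjusted p = 0.0324, lost without any monosome replicate or total replicate 2 or 3, up to 0.122). MSD1, the mitochondrial manganese enzyme, had 7.61, 7.93 and 7.80 in total RNA and 8.93, 8.86 and 8.84 in monosomal RNA (2.14-fold, SE 0.214 log2, adjusted p = 0.00583). The plastid CSD2 was 1.96-fold higher (adjusted p = 0.0131, lost without total replicate 1, up to 0.0541), and the cytosolic CSD1 was 1.98-fold higher (adjusted p = 0.0165, lost without monosome replicate 2 or 3 or total replicate 2, up to 0.121).

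Genes for ribosomal proteins and histones, most of them short, leaned towards monosomal RNA. Of 37 cytosolic ribosomal protein genes that the reference names, 34 had positive differences, against 15231 of all 27827 probe sets. Of the 37, 5 (13.5%) were higher, against 3.2% of all probe sets, and none was lower, with a median of 0.37. RPL24A had 4.92, 5.28 and 4.95 in total RNA and 6.40, 6.06 and 6.08 in monosomal RNA (2.19-fold, SE 0.216 log2, adjusted p = 0.0051). RPS5A had 7.38, 7.37 and 7.80 against 8.38, 8.47 and 8.60 (1.95-fold, adjusted p = 0.00425). Both sets of groups were apart, as for 15.5% of all probe sets in this direction. The 32 genes that did not pass included RPL3B (0.09) and RPL5B (0.07), which encode larger subunit proteins. Called genes had spans of 1104 to 1746 bases, against 815 to 3148 in the whole list, so its shortest gene was not called either. Of 17 nuclear genes for plastid ribosomal proteins, 3 were higher and none was lower, led by PSRP6 (2.17-fold, adjusted p = 0.00298), a ribosome-associated protein of plastids. Of 29 histone genes, 3 (10.3%) were higher and none was lower, with a median of 0.39. The histone H2B gene HTB1 had 5.74, 5.42 and 5.4 in total RNA and 6.69, 7.08 and 6.85 in monosomal RNA (2.56-fold, SE 0.261 log2, adjusted p = 0.00546). Of 48 nuclear photosynthesis genes, 3 (6.25%) were higher, against 3.2% of all probe sets and 5.5% of protein-coding genes with spans of 87 to 1202 bases. The 3 included PSBR, a small subunit of photosystem II, at 7.16, 6.48 and 6.87 against 8.40, 8.26 and 8.11 (2.68-fold, SE 0.192 log2, adjusted p = 0.000625). With single arrays left out, 3 to 5 cytosolic ribosomal, 1 to 3 plastid ribosomal, 1 to 3 histone and 2 to 3 photosynthesis genes were called, the fewest histone genes without monosome replicate 2 and the fewest plastid ribosomal genes without total replicate 2.

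**Figure D3:**
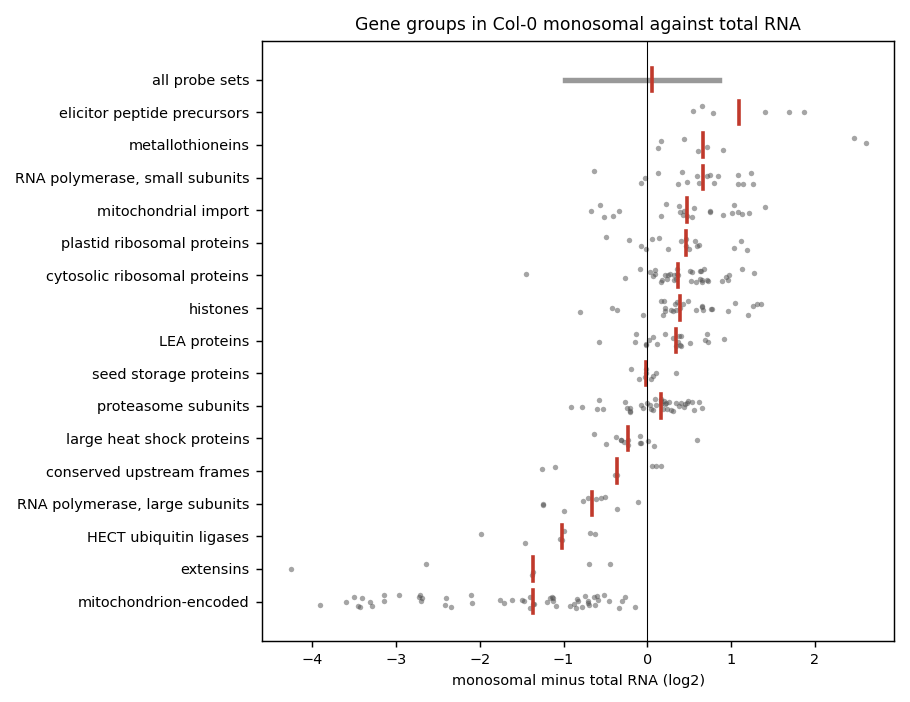
Log2 difference between monosomal and total RNA (x axis) for the members of 16 gene groups and for all probe sets, 1 point per gene, with a red bar at the median of each group; the grey bar for all probe sets spans the 5th to 95th percentile, -0.98 to 0.86. Small-protein groups have medians above 0, storage proteins lie at 0, and large polymerase subunits, HECT ligases, extensins and mitochondrion-encoded genes have medians below 0.

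Among the lower genes were long genes that were lower in monosomal RNA than in both total and polysomal RNA. BIG, a very large protein needed for auxin transport, had 8.17, 8.28 and 8.44 in total RNA, 6.59, 6.31 and 6.58 in monosomal RNA and 9.24, 9.20 and 9.60 in polysomal RNA. It was 3.49-fold lower in monosomal than in total RNA (log2 difference -1.8, SE 0.184, adjusted p = 6.95e-05) and differed by -2.85 from polysomal RNA (adjusted p = 4.62e-07). Its gene spans 17804 bases with introns. The 3 fractions did not overlap, and the order was monosomal, total, polysomal. Every monosomal array lay below every total RNA array for 12.1% of all probe sets.

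The 5 longest protein-coding genes with a signal above the median gave the same order of means in each case. ATM, a kinase of the DNA damage response with a span of 27265 bases, had 4.33, 4.81 and 4.99 in total RNA and 4.06, 4.55 and 4.39 in monosomal RNA, which did not pass the threshold (-0.38, adjusted p = 0.351), but 5.79, 5.83 and 6.01 in polysomal RNA, well above the monosomal arrays (monosomal minus polysomal -1.55, adjusted p = 0.000559). The unnamed loci AT1G48090 (-1.75, adjusted p = 5.92e-05), AT1G67120 (-1.52, adjusted p = 0.00197), AT4G17140 (-1.72, adjusted p = 0.00239) and AT5G24740 (-1.48, adjusted p = 0.00184) were all lower in monosomal than in total RNA, and by 2.48 to 2.78 log2 lower than in polysomal RNA. The 5 shortest such genes, with spans of 87 to 102 bases and no symbol in the reference, had differences from -0.62 to 0.66, none of which passed the threshold.

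The 7 HECT ubiquitin ligases, large single-chain enzymes that pass ubiquitin to their targets, were described after their values were seen. All 7 differences were negative, with a median of -1.02, 5 (71.4%) were lower and none was higher. Their genes span 3928 to 13369 bases. Lower calls made up 3.45% of all probe sets and 7.39% of protein-coding genes with spans of 3348 to 27265 bases. UPL2 had 6.26, 6.72 and 6.73 in total RNA, 4.38, 4.44 and 4.90 in monosomal RNA and 7.08, 7.16 and 7.11 in polysomal RNA. It was 3.98-fold lower than in total RNA (SE 0.212 log2, adjusted p = 0.000102) and differed by -2.54 from polysomal RNA (adjusted p = 6.77e-06). UPL1 was 2.74-fold lower (adjusted p = 0.00156) and KAK, which restrains trichome branching, 2.03-fold lower (adjusted p = 0.00818). The calls of UPL5 (adjusted p = 0.0491) and UPL6 (0.04) were near the threshold, that of UPL6 was lost without monosome replicate 1 or 3 or any total replicate (up to 0.152), and between 3 and 5 of the 7 were called with 1 array left out, as against 3 with centred arrays.

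Callose synthases, which make the glucan of plasmodesmata and cell plates, have spans of 6349 to 16053 bases. Of 11 genes 5 (45.5%) were lower and none was higher. With 1 array left out, 4 or 5 were lower and 0 or 1 higher. For comparison, 3.45% of all probe sets and 7.39% of protein-coding genes with spans of 3348 to 27265 bases were lower. GSL10 had 6.23, 6.77 and 6.97 in total RNA, 5.32, 5.05 and 5.02 in monosomal RNA and 7.19, 7.15 and 7.34 in polysomal RNA (2.88-fold lower than total RNA, SE 0.23 log2, adjusted p = 0.00114). GSL8 (2.36-fold), GSL05 (2.28-fold) and GSL03 (2.39-fold) were lower by similar amounts, with adjusted p values of 0.0031, 0.00169 and 0.00342. The 5 genes that did not pass and had signals of 2 to 2.9 log2 in total RNA, near the bottom of the range, were CALS1, CalS7, GSL04, GSL09 and GSL11, whose differences ran from -0.17 to 0.72.

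**Figure D4:**
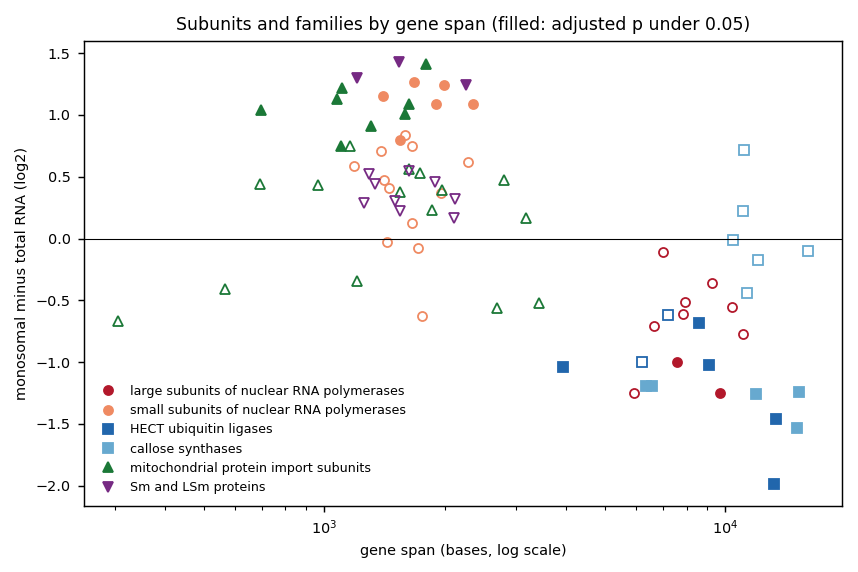
Log2 difference between monosomal and total RNA (y axis) against gene span in bases (x axis, log scale) for 6 gene families, with filled symbols at an adjusted p under 0.05. Called small polymerase subunits, import subunits and Sm or LSm proteins lie above 0 at spans of at most 2351 bases, and called large polymerase subunits, HECT ligases and callose synthases lie below 0 at spans of at least 3928 bases.

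Large regulators of chromatin and protein turnover, picked with their values known, showed the same direction. SYD, an ATPase that remodels nucleosomes, had 6.47, 6.68 and 6.71 in total RNA and 4.91, 5.36 and 5.28 in monosomal RNA (2.71-fold lower, SE 0.226 log2, adjusted p = 0.00145). PKL, a remodeller that keeps embryonic genes silent after germination, was 2.7-fold lower (adjusted p = 0.0163, lost without monosome replicate 1 or total replicate 2, up to 0.0768). Of 35 SET domain genes, 24 had negative differences, 3 (8.57%) were lower and none was higher. The share of lower genes was 3.45% over all probe sets and 7.39% among protein-coding genes with spans of 3348 to 27265 bases. The 3 were SDG2 (-1.48, adjusted p = 0.00151), which trimethylates lysine 4 of histone H3, SDG29 (-1.49, adjusted p = 0.00883) and EFS (-1.28, adjusted p = 0.0212). EFS was not called without monosome replicate 1 or total replicate 1 or 2 (up to 0.0946). PRT6, the ubiquitin ligase of the N-degron pathway that promotes germination, had 7.17, 7.43 and 7.25 against 5.61, 5.96 and 5.78 (2.83-fold lower, SE 0.23 log2, adjusted p = 0.00128). ILA, a HEAT repeat protein needed for immunity, was 3.07-fold lower (adjusted p = 0.00198), and GRV2, an endosomal protein needed for gravitropism, 2.92-fold lower (adjusted p = 0.00128). In all of these genes except PKL and SDG29 the polysomal mean exceeded that of total RNA, by 0.33 to 0.92 log2, though that rise passed the threshold only for ILA (adjusted p = 0.047).

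HUA2 and SCR were lower in monosomal RNA without a higher polysomal mean. HUA2, an RNA-processing factor of flowering control, had 7.40, 7.41 and 7.60 in total RNA, 5.30, 5.65 and 5.51 in monosomal RNA and 7.32, 7.18 and 7 in polysomal RNA (3.95-fold lower than total RNA, SE 0.186 log2, adjusted p = 3.9e-05). SCR, a transcription factor of root and stem cell patterning, had 5.75, 5.48 and 5.33, then 2.63, 3.99 and 3.10, then 4.70, 5.14 and 5.13 in the same fractions (4.85-fold lower than total RNA, adjusted p = 0.000405).

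Of 18 translation factor genes, 1 (5.56%) was lower, against 3.45% of all probe sets, and none was higher. EIF4G, the scaffold of the cap-binding complex, had 8.28, 8.43 and 8.30 in total RNA, 7.54, 7.22 and 6.97 in monosomal RNA and 9, 9.07 and 8.93 in polysomal RNA (2.13-fold lower than total RNA, SE 0.205 log2, adjusted p = 0.00465). The small factors EIF4E (0.65, adjusted p = 0.114) and ELF5A-3 (0.64, adjusted p = 0.102) had positive differences that missed the threshold.

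Over all protein-coding genes, the difference fell with gene span. Span is the genomic length from start to end of the gene in RefSeq (TAIR10.1), introns included, since no coding length was at hand. Among 5 classes of about 5287 genes each, the median difference from total RNA was 0.23 for spans of 87 to 1202 bases, then 0.18, 0.08 and 0.01, and -0.18 for spans of 3348 to 27265 bases. In the shortest class 291 genes were higher and 98 lower, and in the longest 31 were higher and 391 lower. Differences were positive for 3566 of 5287 genes in the shortest class and negative for 3468 of 5288 in the longest. With arrays matched by replicate number, the longest minus the shortest class gave -0.46, -0.38 and -0.42 for replicates 1, 2 and 3 (mean -0.42, SD 0.0372). Every replicate number gave the same direction. In polysomal RNA the same measure had the opposite sign, with 0.29, 0.42 and 0.32 (mean 0.34, SD 0.07), from the same total RNA arrays. Genes are not replicates, so no p is given for the classes. Among the 8812 genes with the strongest signal the medians were 0.38 and -0.36, with 291 higher and 34 lower of 1762 in the shortest class against 4 higher and 288 lower in the longest. Among the 8812 of middle signal they were 0.04 and -0.17, and among the 8812 dimmest 0.28 and 0.12. In polysomal RNA the shortest and longest classes had medians of 0.13 and 0.41 in the strongest set, -0.26 and 0.22 in the middle one and -0.13 and -0.22 in the dimmest, where the sign did not oppose that of monosomal RNA.

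**Figure D5:**
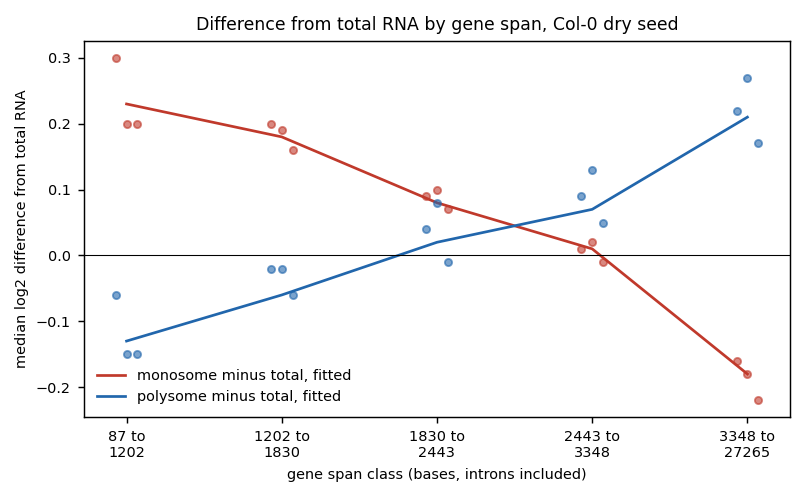
Median log2 difference from total RNA (y axis) for 5 classes of protein-coding genes by gene span in bases (x axis), in monosomal and in polysomal RNA, with lines for the fitted medians and points for the 3 replicate numbers. The monosomal line falls from 0.23 to -0.18 while the polysomal line rises from -0.13 to 0.21.

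Transcripts of the mitochondrial genome were lower as a group. A further 37 mitochondrion-encoded probe sets shared their values with another probe set and were left out. All 55 mitochondrion-encoded probe sets whose values are not shared with another had negative differences, from -3.91 to -0.15, with a median of -1.37. Of them, 34 (61.8%) were lower, against 3.45% of all probe sets (limma, adjusted p under 0.05). The locus ATMG00840 had 8.73, 8.57 and 7.11 in total RNA and 2.86, 4.56 and 5.24 in monosomal RNA (15.1-fold lower, SE 0.687 log2, adjusted p = 0.00307). ATMG00200 had 10.20, 9.93 and 9.70 against 7.8, 7.51 and 8.2 (4.3-fold lower, adjusted p = 0.000129), and ATMG01300 had 6.73, 7.05 and 5.10 against 2.86, 2.94 and 2.59 (11.3-fold lower, adjusted p = 0.00109). The groups did not overlap in any of these 3 loci, as was the case in this direction for 12.1% of all probe sets. The reference used here gives no names for these loci. The median per replicate number was -1.64, -1.36 and -1.2, and 29 to 31 loci were called with 1 array left out. Polysomal RNA was also below total RNA, with a median of -0.96, and 16 of the 55 were lower in monosomal than in polysomal RNA against 8.2% of all probe sets. ATMG00570 was close in polysomal RNA (8.29, 8.10 and 8.54) and total RNA (8.54, 8.18 and 8.24) and lower in monosomal RNA (5.83, 6.28 and 6.57).

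A copy of much of the mitochondrial genome lies in the nucleus on chromosome 2, in the region of locus tags that begin AT2G07. Of 69 probe sets, 44 (63.8%) were lower, against 3.45% of all probe sets, and none was higher, with a median of -1.34. With 1 array left out, 34 to 40 were lower. The list was drawn by locus tag and also holds nuclear genes that are not known as such copies, such as MCM5 and ABCC13. For loci that are near copies, the signal cannot be told apart from that of mitochondrial transcripts, and which loci these are was not tested. One locus of the list is ABCI4 (AT2G07681), named for an ABC transporter subunit, with 9.53, 9.56 and 9.06 in total RNA and 5.04, 4.02 and 6.64 in monosomal RNA (17.8-fold lower, SE 0.657 log2, adjusted p = 0.00151). Of 3 chloroplast-encoded probe sets with values of their own, none passed, and their differences ran from -1.79 to 0.33. How a kit that primes on poly(A) tails reports organelle transcripts was not tested.

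The 12 genes with the largest called fall were low in both ribosomal fractions. Their polysomal differences from total RNA ran from -4.63 to -2.29, and none passed the threshold between monosomal and polysomal RNA (adjusted p of 0.12 or more). Both differences from total RNA use the same total RNA arrays, so the choice of these genes favours a fall in both. EXT10, an extensin of the cell wall, had 6.78, 5.95 and 5.67 in total RNA, 2.45, 1.99 and 1.17 in monosomal RNA and 1.16, 1.60 and 1.76 in polysomal RNA (19.2-fold lower than total RNA, SE 0.601 log2, adjusted p = 0.000927). All 6 extensin genes had negative differences, with a median of -1.37, and 3 (50%) were lower, against 3.45% of all probe sets. The calls of EXT13 (adjusted p = 0.044) and EXT6 (0.0491) were lost with most single arrays left out, up to 0.196 and 0.181, which left 1 or 2 called genes. The other loci were AT1G34910 (-4.39), AT2G11778 (-4.31), AT1G26240 (-4.16), AT5G19257 (-3.98), AT2G40711 (-3.81), AT1G40104 (-3.81), AT3G28640 (-3.7) and AT2G07806 (-3.64), which have no symbol in the reference, beside ABCI4, ATMG00840 and RUB3. For EXT10 and RUB3 the monosomal and polysomal signals lie near the bottom of the signal range, which limits the size of the folds. The call of AT2G40711 was lost without monosome replicate 1 or 3 or total replicate 2 (up to 0.0869).

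Small nuclear and nucleolar RNAs, which guide splicing and RNA modification and carry no ribosomes, held no higher gene. Of 13 snRNA probe sets 3 (23.1%) were lower, and of 68 snoRNA probe sets 5 (7.35%) were lower, against 3.45% of all probe sets, with medians of -0.13 and -0.38. U1.5, a copy of the U1 spliceosomal RNA, had 10.84, 10.25 and 11.24 in total RNA, 7.69, 8.33 and 8.31 in monosomal RNA and 8.81, 8.62 and 9.42 in polysomal RNA (6.35-fold lower than total RNA, SE 0.319 log2, adjusted p = 0.000241). U12, of the minor spliceosome, was 3.87-fold lower (adjusted p = 0.00128), and the small nucleolar RNA SNOR30 3.82-fold lower (adjusted p = 0.00849). All 3 were chosen after their values were seen. They keep a measurable monosomal signal, between 5.96 and 8.33 log2 in each array.

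Lists of seed regulators and reserve metabolism held 0 or 1 called gene each, which lists of this size can hold at the shares of all probe sets called (3.2% higher and 3.45% lower). Of 18 seed maturation regulators 1 was higher, DPBF2 (1, adjusted p = 0.0406), a call that was lost in 9 of 13 alternative settings (up to 0.139). ABI3, the master regulator of maturation, had 8.75, 8.46 and 8.36 in total RNA and 6.96, 8.06 and 7.75 in monosomal RNA. Its difference of -0.93 missed the threshold (adjusted p = 0.0942). The groups did not overlap, as was the case in this direction for 12.1% of all probe sets. Of 22 gibberellin genes 1 was higher, GA2OX6, which inactivates the hormone (1.02, adjusted p = 0.0277, lost without any monosome replicate or total replicate 1 or 2, up to 0.133). None of 40 proteasome subunits passed the threshold, and the same holds for the lists of storage lipid synthesis (18 genes), storage lipid breakdown (21), endoplasmic reticulum chaperones (11), seed coat markers (16) and endosperm markers (6), by limma. At an unadjusted p under 0.05, 6474 probe sets (23.3%) passed over the whole array. Messages with a conserved upstream reading frame, a short frame that can hold ribosomes back, gave 2 lower (28.6%) and no higher gene among 7. A further 12 members shared their values with another probe set and were left out. The called genes span 3320 and 4893 bases, and 7.39% of protein-coding genes with spans of 3348 to 27265 bases were lower. Whether the upstream frame has a part was not tested. The called genes were PAO4 (-1.26, adjusted p = 0.0268) and CPUORF7 (-1.1, adjusted p = 0.0349), both lost with single arrays left out (up to 0.118 and 0.106).

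Monosomal and polysomal RNA were also compared directly. The monosomal arrays are those compared with total RNA. Genes chosen for their difference from total RNA therefore get no separate support here. Of 27827 probe sets, 3467 (12.5%) differed, with 1184 (4.25%) higher and 2283 (8.2%) lower in monosomal RNA. The count was 2179 without monosome replicate 1, and 1963, 1965 and 1730 without polysome replicates 1, 2 and 3. In the shortest span class 7.57% of genes were higher and 0.813% lower, and in the longest 1.3% were higher and 25.9% lower. Among the groups above, 8 of 10 large polymerase subunits, 6 of 7 HECT ligases, 6 of 11 callose synthases and 6 of 18 translation factors were lower in monosomal than in polysomal RNA. The share lower was 8.2% over all probe sets and 25.9% in the longest span class. In the other direction, 7 of 21 late embryogenesis abundant genes, 3 of 7 small heat shock genes, 5 of 18 small polymerase subunits and 6 of 23 import subunits were higher. The share higher was 4.25% over all probe sets and 7.57% in the shortest span class. Storage lipid breakdown, with no call against total RNA, had 5 of 21 genes lower than in polysomal RNA. The median span of that list, 3863 bases, lies in the longest class, so this count is near the 25.9% of that class.

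The comparison in the abci20 mutant uses separate arrays. There, 4098 probe sets (14.7%) differed between monosomal and total RNA, and 7651 without abci20 total replicate 1, so the shares of the abci20 list below rest on that array. Of the 890 higher in Col-0, 562 were also higher in abci20, which is 63.1% of the Col-0 list and 24.8% of the abci20 list. Of the 960 lower in Col-0, 546 were lower in abci20, which is 56.9% and 29.8%. The sign was the same in abci20 for 842 of the 890 and 928 of the 960. SDH8 (3.18 in abci20), MT1C (3.21), CXXS1 (2.58), BIG (-1.74) and UPL2 (-1.52) passed the threshold there too. The median of the mitochondrion-encoded loci was -1.86. The longest minus the shortest span class gave -0.2, -0.21 and -0.35 in abci20, all smaller in size than in Col-0. The difference between the genotypes of -0.17 had an exact permutation p of 0.1 (two-sided, 3 values against 3), the smallest p this design allows, so no threshold of 0.05 could be passed. Without abci20 total replicate 1 the fitted value in abci20 was -0.3 in place of -0.24, against -0.41 in Col-0.

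The difference between genotypes was tested for each probe set as an interaction. None passed the threshold (limma, 2270 probe sets or 8.16% at an unadjusted p under 0.05), and without abci20 total replicate 1, the array that stood apart, 208 passed, 157 of them with a more positive difference in Col-0. Without Col-0 total replicate 1 the number was 2. AT3G19615 had the smallest p. It had 2.16, 1.90 and 1.48 in Col-0 total RNA and 4.22, 4.43 and 4.12 in monosomal RNA, a difference of 2.41 against 0.31 in abci20. HUA2, described above, fell by 1.98 log2 in Col-0 and differed by -0.56 in abci20, and CIPK9, a kinase of calcium signalling, fell by 1.13 in Col-0 and differed by 0.73 in abci20. Their interaction tests did not pass with all arrays, but did without abci20 total replicate 1, at adjusted p values of 0.0238, 0.0328 and 0.0279 for AT3G19615, HUA2 and CIPK9. These genes were among those picked for a small interaction p in the same data, so passing after that choice is no separate support.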

How the data were processed

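RNA from dry seed was hybridised to 18 arrays in 6 groups of 3. The deposited values are log2 signals per probe set after RMA, per the submitters' processing notes; no version is named in the sources used here. RMA corrects background and scales arrays to one another, so values are relative, and no read depth applies; the number of arrays limits precision. Each replicate was a bulk of 8 plants, per the labels.

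A linear model with 6 group means was fitted to all 18 arrays with limma 3.58.1 (R 4.3.3, statmod 1.5.0), with Benjamini-Hochberg adjustment over 27827 probe sets at 0.05. Figures used matplotlib 3.10.9 under Python 3.11.15. The 5 contrasts were monosomal minus total RNA in Col-0 and in abci20, their difference, and monosomal minus polysomal and polysomal minus total RNA in Col-0. The fit was tested on simulated data. Symbols came from RefSeq (TAIR10.1). Named genes were the 12 highest and 12 lowest called, non-overlapping genes, 10 of the interaction, the 4 of smallest p per list and the 5 longest and 5 shortest genes. The planned coding lengths were not at hand, so gene span replaced them. Probe sets that shared their values with another were left out of lists. Members and lists were chosen with earlier results of these data known, and several families and single genes were added after their values had been seen: plastid ribosomal proteins, extensins, ubiquitin and its relatives, elicitor peptide precursors, tau glutathione transferases, chromosome 2 insertion loci, abscisic acid receptors, Sm and LSm proteins, import subunits, polymerase subunits, succinate dehydrogenase, callose synthases, SET domain proteins and HECT ligases.

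Equal replicate numbers were taken as a possible pairing. Deviations from the group means correlated at -0.00192, 0.00827 and 0.00152 for same numbers, so the main fit did not treat the numbers as pairs. Differences per replicate number do match arrays by number. The SD of the span difference, the exact permutation p and the rule for the flagged genes rest on them. The correlations do not bear that matching out, so this SD and p do not measure the spread of true pairs. Alternatives were a replicate block, only the compared arrays, quantile normalization, centring, a filter on dim probe sets, array weights, a robust fit with a variance trend and arrays left out.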

Additional observations from a re-analysis of the deposited data

Results flagged for a closer look

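Of the named genes, 5 had monosomal minus total differences of one sign at all 3 replicate numbers in Col-0 and of the other sign in abci20. CIPK9 differed between the genotypes by -1.86 log2 (Col-0 minus abci20), with -1.21, -0.78 and -1.4 in Col-0 and 0.63, 0.91 and 0.65 in abci20. AT2G28940 differed by -1.64, with -1.22, -1.27 and -0.66 against 0.7, 0.79 and 0.29. AT3G44840 differed by 1.83, with 0.42, 0.41 and 0.57 against -1.41, -1.12 and -1.56. AT5G01790 differed by 2.49, with 0.5, 0.26 and 0.39 against -1.41, -2.94 and -1.96. UGT75B2, a glycosyltransferase gene, differed by 2.5, with 0.89, 0.86 and 0.85 against -2.48, -0.44 and -2. The interaction was tested in limma and did not pass the correction in any of the 5 (adjusted p = 0.23 in each). Without abci20 total replicate 1, the array that stood apart, all 5 passed, with adjusted p values of 0.0279 for CIPK9, 0.0399 for AT2G28940, 0.0269 for AT3G44840, 0.00755 for AT5G01790 and 0.0374 for UGT75B2 and differences of -1.86, -1.46, 1.91, 2.92 and 2.08. The 5 genes were among those picked for a small interaction p. Groups of 3 arrays are too small for a test of single outlying arrays.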

How the results depend on the processing

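Against total RNA, 1850 probe sets were called, and the count moved past 1.5 times when the fit held the 6 compared arrays alone (637, with 267 higher and 370 lower) and without abci20 total replicate 1 (3185), and ran from 768 to 1526 with single compared arrays left out. Against polysomal RNA the count of 3467 moved to 2070 with quantile normalization and to 5496 with array weights, and ran from 1730 to 3351 with single arrays left out. The interaction had 0 calls, 1 with quantile normalization, 1 with array weights, 208 without abci20 total replicate 1, and 0 to 208 with single arrays left out. With the replicate block, counts were 1706 against total RNA, 3390 against polysomal RNA and 0 for the interaction; the pairing was not borne out by the correlations. The span difference of -0.41 was -0.48 with 10 classes, -0.32 with quantile normalization, -0.59 among brighter probe sets and -0.45 to -0.35 with single arrays left out. Of 128 named genes with a call, 74 kept it in all settings run for them, and 81 kept it with only the compared arrays; NRPB1, RPS5A, LTI30, EIF4G, TOM22-V, NRPB8B, NRPE5, MUB1, AT4G17140 and SDG29 lost it only there (adjusted p of 0.0529, 0.0668, 0.0531, 0.0536, 0.0503, 0.0608, 0.0537, 0.0679, 0.0637 and 0.0537). Centring moved the median of all probe sets from 0.06 to 0.2, and medians just below 0 turned positive with it (storage proteins 0.12, translation factors 0.09, seed maturation regulators 0.08, storage lipid synthesis 0.11). The causes were not tested. Signals near the floor limit the folds of dim probe sets.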
